A study of Mus musculus with 18 samples.

Results

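Mouse embryonic stem cells that had lost BAP1 were compared directly with cells carrying the C91A form of BAP1, both after 4 days of 100 nM 4-hydroxytamoxifen, over all genes counted. The comparison was defined by the sample labels and took 6 of the 18 libraries of the series. Of these, 3 libraries came from the conditional BAP1 knockout line given the drug (here the knockout) and 3 from the knock-in C91A line given the drug (here the C91A mutant). The 3 untreated libraries of each line, which shared no library with that comparison, gave the difference between the lines before recombination, and 3 wild-type libraries gave a reference level. Both lines rely on Cre that 4-hydroxytamoxifen switches on, and all cells, controls included, had also been given emricasan, a caspase inhibitor. The protocol therefore read transcripts of cells protected from caspase-dependent death. Whether a line was 1 clone, its genetic background, and whether replicates were separate cultures are not given in the sources used here, and p-values then speak only of the spread among these libraries, which may be technical. Whether wild-type cells received 4-hydroxytamoxifen is not given either.

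BAP1 is a nuclear deubiquitinase that works with an ASXL protein to remove ubiquitin from histone H2A, the mark that Polycomb repressive complex 1 (PRC1) writes through the ligase RNF2. C91 is the cysteine of its catalytic centre, and the C91A exchange leaves the protein in the cell without its enzymatic activity. A direct comparison of the end states therefore sets cells without the protein beside cells with an inactive protein.

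The 3 knockout libraries held 12051389, 8106613 and 17988460 counts, and the 3 C91A mutant libraries 14725343, 15336035 and 19205290. Levels are given as CPM, counts scaled to library size by the TMM factor of edgeR, and differences as log2 fold changes (knockout minus C91A mutant) with a standard error (SE). Tests were run over 16875 genes with the quasi-likelihood method of edgeR, and a gene is called higher or lower where its Benjamini-Hochberg adjusted p was under 0.05. The stem cell label was checked with Pou5f1, the central pluripotency factor, which was at 974, 874 and 923 CPM in the knockout and 637, 696 and 659 CPM in the C91A mutant. Sox2 and Nanog stood at 403 to 421 and 247 to 254 CPM in the knockout, against 316 to 348 and 205 to 216 CPM in the C91A mutant. All 3 factors were higher in the knockout, Pou5f1 by 0.48 (SE 0.05), Sox2 by 0.34 (SE 0.04) and Nanog by 0.25 (SE 0.04). Among fibroblast genes, read as markers of feeder cells, the collagen gene Col3a1 was low in both groups, at 0.782 to 1.49 CPM over the 6 libraries. Other members were not low, among them Vim (means of 271 CPM in the knockout and 156 CPM in the C91A mutant) and Acta2 (44.9 and 97.0 CPM). Of 19 tested members 12 were lower and 2 higher in the knockout, and the share of feeder cells was not tested.

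Of 16875 genes, 8525 (50.5%) differed between knockout and C91A mutant, 4145 higher (24.6%) and 4380 lower (26%) in the knockout. The large differences leaned to lower levels in the knockout, with 420 genes at least 2-fold higher and 1158 at least 2-fold lower. Small differences made up most of the calls, since 61.9% of called genes differed by less than 1.5-fold. The ranges of the 2 groups did not overlap for 9331 genes (55.3%). Libraries of the 2 groups lay 0.508 apart on average (root mean square difference in log2 CPM over the 11741 genes whose mean log2 CPM reached 2), against 0.185 within the knockout and 0.161 within the C91A mutant.

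Much of this difference was already present between the lines without the drug. Between the untreated lines 5890 genes (34.9%) differed, 2930 higher (17.4%) and 2960 lower (17.5%) in the knockout line, and their libraries lay 0.359 apart. These shares, and 24.6% and 26% at the end state, are the background for all counts of list members below. A list near them is not set apart from other genes. Among the 1158 genes at least 2-fold lower in the knockout, 746 were called in the same direction between the untreated lines, 25 in the opposite direction and 387 were not called there. For the 420 genes at least 2-fold higher, these numbers were 235, 1 and 184. Across the 16875 genes the end-state and untreated differences had a Pearson correlation of 0.61 and a Spearman correlation of 0.53, as a description over genes that share their libraries within each difference. A test of the change itself, end-state difference minus untreated difference, called 4395 genes (26%), 2051 in the positive and 2344 in the negative direction. Of the genes called at the end state, 3740 were also called in that test and 4785 were not.

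**Figure D1:**
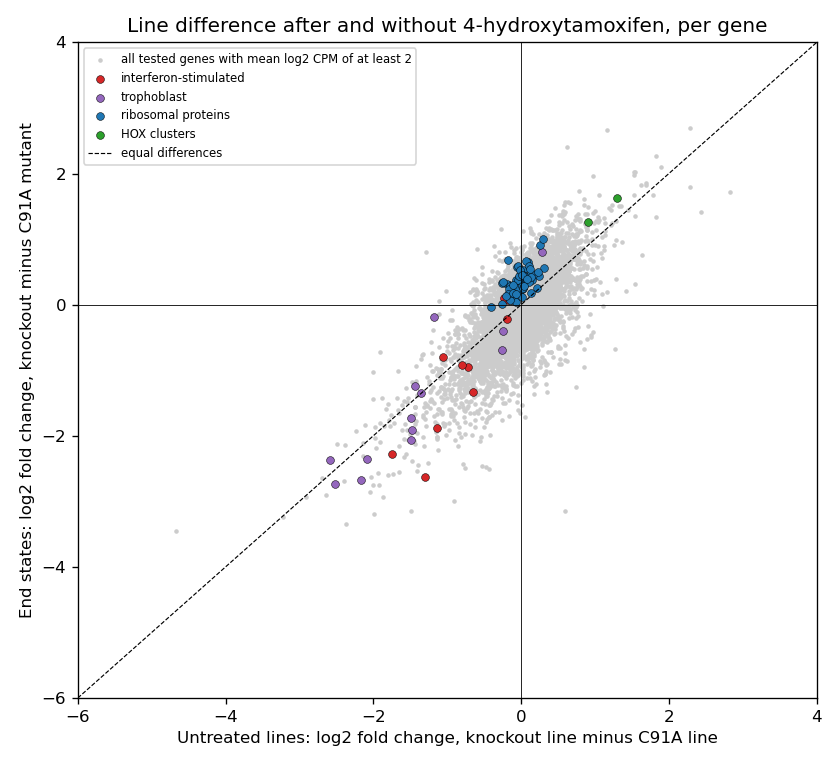
Each point is 1 gene whose mean log2 CPM over the end-state libraries reached 2, with the log2 fold change between the untreated lines on the x axis and between the end states on the y axis. The dashed line marks equal differences, and colours mark 4 gene groups. Most interferon-stimulated (red) and trophoblast genes (purple) lie low on both axes and HOX genes (green) lie high on both, whereas the ribosomal protein genes (blue) are near 0 on the x axis and mostly above 0 on the y axis.

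Genes of chromosome 11 were shifted as a whole. Of 1325 tested genes there, 43.5% were lower and 15.5% higher in the knockout, with a median of -0.20 on the log2 scale, and between the untreated lines 36.3% were lower, with a median of -0.13. The median over all genes was -0.01 at the end state. In 10-megabase intervals along the chromosome all 13 medians were below 0 at the end state (-0.29 to -0.01) and between the untreated lines (-0.20 to -0.08). Set against wild type, the median level of 944 genes of this chromosome was 0.20 to 0.21 higher in the C91A mutant libraries, 0.14 to 0.16 higher in the untreated C91A line, and between -0.01 and 0.04 in all libraries of the knockout line. The number of copies of the chromosome in each line was not tested. Outside chromosome 11, 3939 genes were higher and 3804 lower in the knockout, so the near balance of directions held there too. Chromosome 8 leaned the same way by less, with 30.1% of its genes lower and 20.3% higher at the end state. Untreated, 30.6% were lower and 9.3% higher there. Genes named below that lie on chromosome 11 are marked as such, and those on chromosome 8 are not marked throughout.

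**Figure D2:**
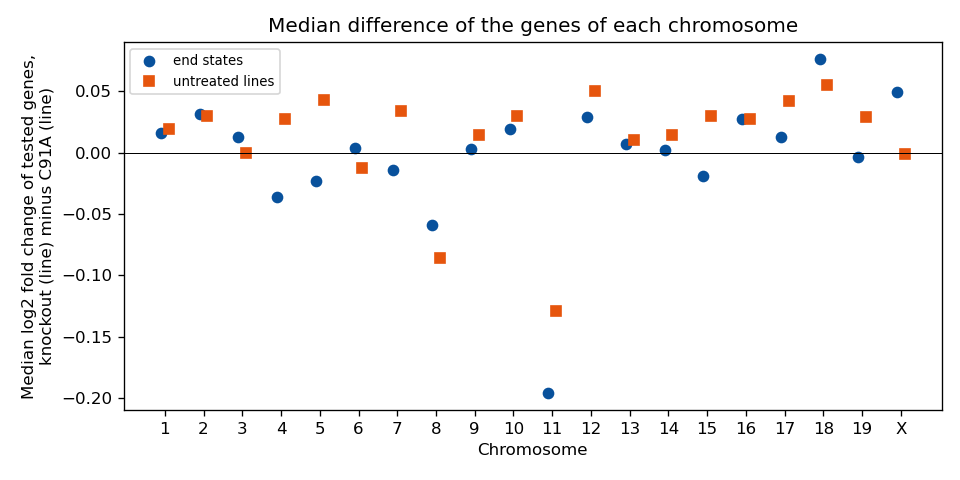
Median log2 fold change of the tested genes of each autosome and of X, between the end states (circles) and between the untreated lines (squares), with no error shown. Chromosome 11 stands lowest in both, at -0.20 and -0.13, and chromosome 8 follows at -0.06 and -0.09.

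Bap1 itself (Entrez 104416, GRCm38 chr14:31251352-31259930) was measured at 151, 147 and 152 CPM in the knockout and 163, 166 and 166 CPM in the C91A mutant. The groups did not overlap, and the knockout was slightly lower (-0.14, SE 0.05, adjusted p = 0.019), a call lost without knockout replicate 2 (-0.12, adjusted p = 0.060) or without C91A mutant replicate 3 (-0.12, adjusted p = 0.078). The untreated lines differed the other way, at 169 ± 1.53 CPM in the knockout line and 88.9 ± 4.57 CPM in the C91A line (SD, n = 3), against 178 CPM in wild type. The change of the difference passed its test (-1.07, SE 0.07, adjusted p = 5.5e-16). That test does not address the sign at the end state, which rests on the small difference above. Reads were counted over the gene as a whole, so a transcript without the deleted part, or with the exchanged codon, still counts, and neither genotype is checked by these values. Rnf2 stood at 114, 127 and 128 CPM in the knockout and 119, 100 and 115 CPM in the C91A mutant. Its ranges overlapped, and its difference of 0.14 (SE 0.06, adjusted p = 0.042) was lost without knockout replicate 2 (adjusted p = 0.13) or 3 (0.20) and without C91A mutant replicate 2 (0.35).

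The partners of BAP1 were measured in a list of 12 complex genes, of which 4 were higher and 5 lower in the knockout, with a median of 0.06. Mbd6, a methyl-CpG-binding-domain protein found with the complex, was at 418, 393 and 382 CPM in the knockout and 227, 250 and 243 CPM in the C91A mutant. All knockout libraries were above all C91A mutant libraries (0.73, SE 0.05), and the gap was wider than between the untreated lines (change 0.50, SE 0.08). Mbd6 lies beside Ddit3 in the genome, and reads of neighbouring genes cannot be told apart where they overlap without strand. Asxl2, which activates the enzyme, and Foxk1, a forkhead factor that brings the complex to DNA, were each 0.44 higher (SE 0.06 for both). Untreated, they were 0.22 and 0.27 higher, and the change passed the test for Asxl2 only (0.22). Of the PRC1 subunits 6 were higher and 4 lower among 27, no more often than the 24.6% and 26% of all genes. Pcgf5, a subunit of a variant PRC1, stood at 24.2, 24.2 and 25.1 CPM in the knockout against 58.0, 60.4 and 58.8 CPM in the C91A mutant (-1.27, SE 0.08, untreated -0.72). Of 13 PRC2 genes, the methyltransferase complex that marks histone H3, 6 were higher and 5 lower. The core subunit Suz12, which lies on chromosome 11, was 0.60 lower (SE 0.06), at 120 to 122 CPM against 175 to 197 CPM. It was 0.42 lower untreated, and its change did not pass the test (-0.19, adjusted p = 0.099).

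Cells in this experiment were kept alive by a caspase inhibitor, so genes of cell death were read next, beginning with the survival proteins that hold mitochondria intact. Bcl2 (chr1:106538176-106714290) was at 3.33, 4.23 and 6.02 CPM in the knockout and at 5.04, 64.0 and 54.9 CPM in the C91A mutant. C91A mutant replicate 1 lay within the knockout range, so the groups overlapped, and the other 2 libraries of the mutant lay far above it. The untreated lines held 861 ± 17.99 and 568 ± 25.9 CPM (SD, n = 3), so both end states were far below their own untreated line. Bcl2 was lower in the knockout than in the C91A mutant (-3.14, SE 0.74, adjusted p = 0.0031), but with the spread estimated from the compared groups alone the adjusted p was 0.090. Without C91A mutant replicate 1 the difference was -3.64. Mcl1, the second main survival protein of stem cells, was close in the end states. It stood at 518, 554 and 526 CPM in the knockout and 508, 514 and 500 CPM in the C91A mutant (0.07, SE 0.04, adjusted p = 0.15), with all knockout libraries above all C91A mutant libraries by a margin that did not pass the test. The untreated lines were at 1436 and 950 CPM (0.60, SE 0.04), and the narrowing of the gap passed the test of change (-0.53, SE 0.06, adjusted p = 8.5e-10). Bcl2l1, which encodes the survival protein BCL-XL, was at 95.6, 96.1 and 102 CPM in the knockout, below all C91A mutant libraries at 160, 174 and 173 CPM (-0.79, SE 0.05), a wider gap than between the untreated lines (-0.25).

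Of 13 pro-apoptotic BCL2 family genes, 6 were higher and 5 lower in the knockout, with 24.6% and 26% over all genes. The higher members included BH3-only genes under p53 control. Pmaip1 (NOXA) was at 585, 590 and 555 CPM in the knockout and 358, 320 and 310 CPM in the C91A mutant, with no overlap (0.81, SE 0.05). Bbc3 (PUMA) was 0.73 higher (SE 0.07) and the pore-forming Bax 0.46 higher (SE 0.05). In the other direction stood Bmf, a BH3-only sensor of cytoskeletal damage, at 27.9, 23.7 and 27.6 CPM against 49.2, 50.6 and 48.6 CPM (-0.89, SE 0.08).

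Among 23 tested caspase, apoptosome and death receptor genes, 8 were higher and 10 lower in the knockout (24.6% and 26% over all genes). Between the untreated lines 5 were higher and 1 lower (17.4% and 17.5% over all genes). In the test of change 3 passed in the positive and 8 in the negative direction. Fas, a death receptor and p53 target, was low but separated, at 5.94, 8.06 and 7.76 CPM in the knockout and 2.62, 2.86 and 2.52 CPM in the C91A mutant (1.44, SE 0.19). Fas was already higher in the untreated knockout line (1.21), and its change did not pass the test (0.23, adjusted p = 0.62). Values of 4 members, chosen after they were seen, follow. Ripk1, a kinase of the necroptosis route, was at 5.22, 5.42 and 4.57 CPM against 8.37, 8.59 and 7.67 CPM (-0.72, SE 0.14), although it was higher in the untreated knockout line (0.40). Mlkl, which encodes the protein that breaks the plasma membrane in necroptosis, was at 0.630, 0.132 and 0.903 CPM against 2.34, 2.11 and 2.79 CPM (-1.90, SE 0.32), and its kinase Ripk3 was 0.83 lower (SE 0.21). Cflar, the inhibitor of caspase-8, was 0.95 lower (SE 0.15) and did not differ between the untreated lines by the test (0.02). The changes of Ripk1, Mlkl, Ripk3 and Cflar all passed the test (-1.11, -1.69, -0.70 and -0.97). As these members were picked by their values, they do not stand for the list, and Mlkl was near the floor in the knockout.

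**Figure D3:**
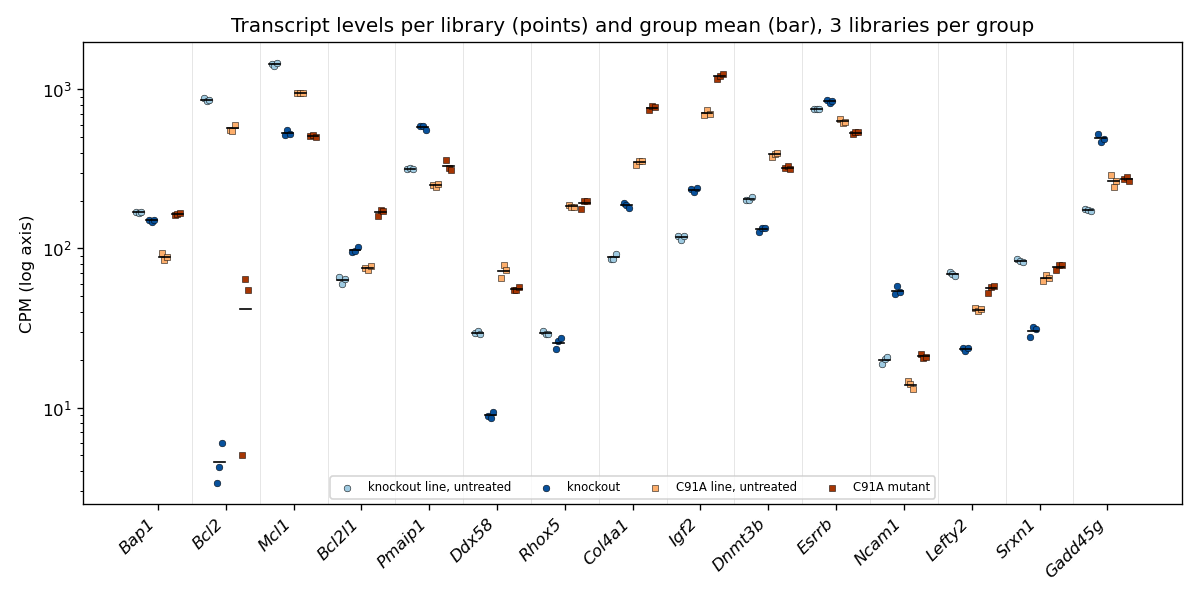
CPM of 15 genes on a log axis in the untreated and drug-treated libraries of both lines, with each library as a point and the mean of each group as a bar (n = 3 libraries per group). C91A mutant replicate 1 falls beside the knockout libraries for Bcl2, the Mcl1 levels of the end states lie together, and Lefty2, Srxn1 and Gadd45g change their order between untreated and treated lines.

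Among p53 targets, which p53 switches on after damage or stress, 22 of 32 were higher and 3 lower in the knockout, with a median of 0.27, against backgrounds of 24.6% and 26% over all genes. Rrm2b, a ribonucleotide reductase subunit for DNA repair, was at 24.1, 27.2 and 23.4 CPM in the knockout and 14.7, 11.9 and 9.59 CPM in the C91A mutant (1.05, SE 0.12). Eda2r, a receptor of the tumour necrosis factor family, stood at 166, 186 and 164 CPM against 110, 90.7 and 91.3 CPM (0.82, SE 0.07). The cell-cycle inhibitor Cdkn1a was only 0.27 higher (SE 0.05). The direction was already there without the drug, with 21 higher and 3 lower between the untreated lines and a median of 0.21. Of the 10 positive and 3 negative changes that passed the test, that of Rrm2b was 0.53 and that of Eda2r 0.35.

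Interferon-stimulated genes had the lowest median of the 47 lists. These genes encode sensors and effectors of antiviral defence and share a promoter element, the interferon-stimulated response element (ISRE). Of 27 listed genes 25 were tested, and 22 of them were lower and 0 higher in the knockout (backgrounds 26% and 24.6%), 18 of them at least 2-fold, with a median of -1.93. The 3 others were Ifitm1 (0.07), Isg20 (-0.11) and Stat2 (0.10). Their summed level was closer than the median, at 470 to 520 CPM in the knockout and 767 to 783 CPM in the C91A mutant. Between the untreated lines 24 were lower and 0 higher, with a median of -1.62. The change passed the test for 2 members in the positive and 4 in the negative direction, against 26% of all genes. To show the element in the genes concerned, the promoters (250 bases before to 50 after the start site, RefSeq, GRCm38.p6) of members were searched on both strands for GAAANNGAAA, overlapping matches included. A match was found in 9 of 18 tested members with a promoter in the table, in 3.49% of 27025 promoters overall and in 2.78% of those of tested genes. Stat2, not called at the end state, was among these 9. The 4 shown had the highest levels among those called lower with matches only upstream of the start site. Parts are printed 5′ to 3′ on the strand of the gene, upstream of the start site, with the matches in capitals.
Bst2 (chr8:71537547-71537642, minus strand): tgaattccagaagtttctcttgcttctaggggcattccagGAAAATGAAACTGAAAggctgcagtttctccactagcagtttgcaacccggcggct
Rsad2 (chr12:26456523-26456612, minus strand): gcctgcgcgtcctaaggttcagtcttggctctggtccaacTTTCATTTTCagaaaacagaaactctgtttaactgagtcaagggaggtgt
Isg15 (chr4:156200835-156200936, minus strand): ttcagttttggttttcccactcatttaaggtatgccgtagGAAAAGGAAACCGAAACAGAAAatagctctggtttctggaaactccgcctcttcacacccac
Oas1a (chr5:120907526-120907585, minus strand): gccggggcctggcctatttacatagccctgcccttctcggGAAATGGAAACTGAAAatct

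Levels of these 4 genes separated the groups in every library, which their choice among genes called lower favoured. Bst2 (tetherin), a membrane protein that holds budding virus, was at 138, 125 and 132 CPM in the knockout and 249, 255 and 244 CPM in the C91A mutant (-0.92, SE 0.05). Isg15, a ubiquitin-like modifier, was at 0.450, 0.264 and 0.301 CPM against 4.33, 5.18 and 5.53 CPM (-3.86, SE 0.33). Rsad2 (viperin) was 1.93 log2 units lower (SE 0.26), at 1.62, 0.661 and 0.782 CPM against 4.26, 3.89 and 3.67 CPM. Oas1a, which makes the activator of RNase L, was at 0.0900 to 0.264 CPM against 1.91 to 2.19 CPM, and because it belongs to a family of close copies its counts are uncertain. The RNA sensor Ddx58 (RIG-I) was at 8.82, 8.59 and 9.33 CPM in the knockout and 54.9, 55.0 and 57.6 CPM in the C91A mutant (-2.64, SE 0.09, adjusted p = 3.4e-28). Ddx58 was also lower in the untreated knockout line, at 29.6 against 72.5 CPM (-1.30), and its gap widened (change -1.34, SE 0.12). For Irf7 and Oasl2, at 2.59 and 2.28 log2 units lower, the change did not pass the test (-0.64, adjusted p = 0.24, and -0.54, adjusted p = 0.069). Wild type stood between the lines for Ddx58 (44.9 CPM) and beside the knockout line for Isg15 (0.956 CPM against 0.886 CPM untreated).

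Some genes were at or near 0 in the knockout and not in the C91A mutant. By a rule chosen after the values were seen, 25 tested genes had at most 3 counts summed over the 3 knockout libraries and at least 30 over the 3 C91A mutant libraries, and 0 genes showed the reverse. Ifi27, an interferon-inducible gene, had 2 counts in the knockout and 755 in the C91A mutant, a ratio of 283 after scaling (95% exact interval 78.2 to 2344). Mx2, an antiviral GTPase, had 1 against 75 counts (ratio 56.3, interval 9.80 to 2253) and the helicase-like Ddx60 3 against 131 (ratio 32.8, interval 11 to 161). Rtp4 was at 0 against 108 counts and so at least 27.0-fold lower in the knockout, and Oas1g at 0 against 52, at least 13.0-fold lower, both with a floor of 3 counts over the group. These intervals and floors cover counting error only. Because the rule selected on these same counts, large ratios follow from it and are no test of the genes. These 5 were picked as interferon-inducible examples, and the 25 also held Peg13 (2 against 67 counts), Tnnt3 (3 against 69) and Frk (2 against 57). Knockout replicates 1 and 2 were shallower than all C91A mutant libraries, and the ratios are scaled for depth. In the untreated libraries Ifi27, Mx2, Ddx60, Rtp4 and Oas1g had 14, 4, 43, 4 and 2 counts in the knockout line. In the C91A line they had 1099, 203, 542, 254 and 142.

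Genes of the trophoblast, the lineage of the placenta, were lower in the knockout as a group. Of 20 listed genes 18 were tested, and 13 were lower and 1 higher at the end state, with a median of -1.74 (-1.53 with Elf5, at 0 counts in the knockout, set at its bound). The untreated lines gave 15 lower and 1 higher, with a median of -1.48. Their summed level was 815 to 841 CPM in the knockout and 2789 to 3002 CPM in the C91A mutant. Krt7, a simple-epithelium keratin, stood at 21.0, 21.8 and 19.3 CPM against 122, 137 and 134 CPM, with no overlap (-2.68, SE 0.08, adjusted p = 9.8e-31). Igf2, an imprinted growth factor, was at 236, 226 and 240 CPM against 1161, 1213 and 1244 CPM (-2.36, SE 0.04). Igf2 alone held a large part of the summed level in the C91A mutant. Hand1, a basic helix-loop-helix factor of trophoblast giant cells on chromosome 11, was at 6.21, 5.55 and 4.93 CPM against 34.7, 36.8 and 38.1 CPM (-2.74, SE 0.12). The lineage regulator Cdx2 was near the limit of measurement in all libraries (0.264 to 2.03 CPM). Gata2 was the member that stood higher (0.80). In bulk libraries, fewer cells of a type and less RNA per cell cannot be told apart. Hand1 and Krt7 in wild type (18.2 and 49.1 CPM) stood between the untreated lines, at 7.23 and 22.1 CPM in the knockout line and 41.6 and 99.4 CPM in the C91A line.

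Primitive and visceral endoderm genes followed the same direction, with 13 of 18 tested members lower and 0 higher, a median of -0.58, and 10 lower and 0 higher between the untreated lines. Their leading members encode basement membrane. Col4a1 and Col4a2, neighbours on chromosome 8 that share a promoter region and encode the chains of type IV collagen, were at 194, 186 and 179 CPM and 129, 130 and 113 CPM in the knockout. In the C91A mutant they were at 743, 780 and 776 CPM and 507, 549 and 533 CPM. Both were about 2 log2 units lower in the knockout (-2.04, SE 0.04, and -2.10, SE 0.05), and neither gap had changed from that of the untreated lines by the test (-0.06, adjusted p = 0.51, and 0.03, adjusted p = 0.79). Sparc, a collagen-binding matrix protein on chromosome 11, was at 385, 355 and 378 CPM against 1021, 1099.8 and 1119 CPM (-1.53, SE 0.04). Among 28 collagens, laminins and integrins, 20 were lower and 1 higher, with a median of -0.54. There 16 changes were negative and 3 positive, and the untreated lines gave 15 lower and 5 higher.

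Contractile actin genes are targets of serum response factor (SRF), which reads the state of the actin skeleton through the CArG box. All 21 listed genes were tested, and 19 were lower and 0 higher in the knockout, with a median of -0.67. Between the untreated lines 17 were lower and 0 higher. The smooth muscle actin gene Acta2 was at 45.7, 44.4 and 44.5 CPM in the knockout against 90.7, 99.6 and 101 CPM in the C91A mutant (-1.11, SE 0.06), with 4.81 and 9.29 CPM in the untreated lines. The skeletal actin gene Acta1 was at 33.3, 33.7 and 36.2 CPM against 86.3, 99.7 and 109 CPM (-1.51, SE 0.11). Calponin 2 (Cnn2) was at 166, 149 and 156 CPM against 306, 326 and 331 CPM (-1.03, SE 0.05). Srf itself was 0.45 lower (SE 0.06) and its target vinculin (Vcl) 0.43 lower (SE 0.05). The CArG box was found on either strand in 6 of 19 member promoters in the table and in 1.57% of 27025 promoters. It is shown in capitals in 3 of them, upstream of the start site and on the strand of the gene. These 3 were chosen among members called lower.
Acta1 (chr8:123894799-123894888, minus strand): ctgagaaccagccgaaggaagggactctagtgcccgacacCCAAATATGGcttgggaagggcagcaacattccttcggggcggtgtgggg
Cnn2 (chr10:79988504-79988593, plus strand): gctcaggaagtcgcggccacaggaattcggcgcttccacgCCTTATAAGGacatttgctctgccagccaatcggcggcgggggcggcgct
Srf (chr17:46556175-46556284, minus strand): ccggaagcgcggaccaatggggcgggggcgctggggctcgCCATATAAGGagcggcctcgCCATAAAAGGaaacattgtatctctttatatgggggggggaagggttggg

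Targets of YAP and TEAD, which transmit Hippo and mechanical signals, were lower as well, with 15 of 17 lower and 0 higher and a median of -0.80, against 11 lower and 1 higher between the untreated lines. Ccn1, a secreted matrix protein, was at 111, 114 and 115 CPM against 297, 300 and 306 CPM (-1.41, SE 0.05). Lats2, a kinase that restrains YAP, was at 13.1, 13.1 and 12.1 CPM against 25.2, 27.9 and 28.0 CPM (-1.09, SE 0.10). Yap1 itself differed by only -0.13 (SE 0.04).

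Genes of FGF signalling and its feedback stood lower in the knockout, while the list had no such lean between the untreated lines. ERK activity induces the phosphatases and Sprouty proteins that dampen it, so these transcripts are commonly read as its output. Of 22 tested genes 14 were lower and 2 higher at the end state, with a median of -0.53, against 8 lower and 5 higher and a median of 0.03 untreated, and 13 changes were negative and 2 positive. Dusp6, the ERK phosphatase, was at 18.9, 18.9 and 22.4 CPM in the knockout and 52.4, 57.2 and 50.8 CPM in the C91A mutant (-1.39, SE 0.08, change -1.06, SE 0.11). Spry4 turned from higher in the untreated knockout line (0.63) to lower in the knockout (-0.85, SE 0.08), at 21.5, 18.9 and 21.3 CPM against 38.9, 39.1 and 34.8 CPM. Fgfr2, a receptor, was 1.34 lower (SE 0.07) with no change from the untreated difference by the test (0.02, adjusted p = 0.92). Of 16 immediate early genes 11 were lower and 2 higher. Egr1, a zinc finger factor induced by ERK, was at 11.8, 10.7 and 10.9 CPM against 31.8, 34.9 and 34.8 CPM (-1.60, SE 0.09). Myc stood at 10.1, 7.27 and 9.81 CPM against 18.1, 20.7 and 19.9 CPM (-1.08, SE 0.12), although it was higher in the untreated knockout line (0.31, change -1.39, SE 0.15).

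BMP genes were lower more often than higher. Of 20 BMP genes and ID targets 13 were lower and 2 higher (26% and 24.6% over all genes), with a median of -0.67. Bmp4, which supports self-renewal with LIF, was at 3.96, 3.17 and 3.55 CPM against 11.1, 10.6 and 12.2 CPM (-1.65, SE 0.15), and Bmp8b at 3.87, 3.30 and 4.93 CPM against 32.8, 31.0 and 33.0 CPM (-2.93, SE 0.13). Both gaps were wider than untreated (change -1.07 for Bmp4 and -1.06 for Bmp8b). In the activin, nodal and TGF-beta list 10 of 23 genes were lower and 3 higher, with a median of -0.03. Its member Lefty2, a feedback inhibitor of nodal, was at 23.8, 22.6 and 23.8 CPM against 52.4, 57.4 and 58.4 CPM (-1.26, SE 0.07), whereas the untreated knockout line was above the C91A line, at 69.0 against 41.3 CPM. Its change of -2.0 (SE 0.10, adjusted p = 9.5e-21) was a reversal.

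Cytosolic ribosomal protein genes were higher in the knockout without being so between the untreated lines. Of 81 tested genes 65 were higher and 0 lower, with a median of 0.35, and 3 were higher and 4 lower untreated, with a median of 0.00. The change passed the test for 54 of them, all in the positive direction. Their summed level was 25690 to 27340 CPM in the knockout and 20450 to 21450 CPM in the C91A mutant. Rpl36, a protein of the large subunit, was at 101, 93.9 and 87.8 CPM against 45.05, 48.8 and 46.5 CPM (1.01, SE 0.08). Rps20, of the small subunit, was at 220, 230 and 214 CPM against 153, 149 and 144 CPM (0.57, SE 0.06), with 116 and 120 CPM in the untreated lines. Many of these genes have processed pseudogenes, so counts of uniquely aligned reads hold only part of their transcripts. Leaving out any 1 end-state library left 57 to 61 of them higher and 0 lower.

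DNA replication genes were higher too, by small amounts, with 18 of 26 higher and 2 lower and a median of 0.19, against 3 higher and 2 lower between the untreated lines. Over all genes the shares were 24.6% and 26% at the end state, and 17.4% and 17.5% untreated. Rrm2, which makes the building blocks of DNA, was at 501, 499 and 495 CPM against 351, 349 and 342 CPM (0.52, SE 0.04). Mcm2, a subunit of the replicative helicase, was at 893, 847 and 854 CPM against 662, 672 and 660 CPM (0.38, SE 0.04). For both, the groups did not overlap and the change passed the test (0.45 and 0.30). Of 26 mitosis genes only 4 were higher and 5 lower. Nuclear-encoded respiratory chain genes had 15 of 34 higher and 2 lower, with a median of 0.14, against 2 higher and 8 lower untreated. Sdhd, a membrane subunit of succinate dehydrogenase, was at 342, 315 and 350 CPM against 225, 223 and 217 CPM (0.60, SE 0.05). Of 19 endoplasmic reticulum chaperones 14 were higher and 2 lower, as were 13 and 2 untreated. Calr, which folds glycoproteins, was at 1663, 1644 and 1659 CPM against 1051, 1097 and 1102 CPM (0.61, SE 0.04).

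**Figure D4:**
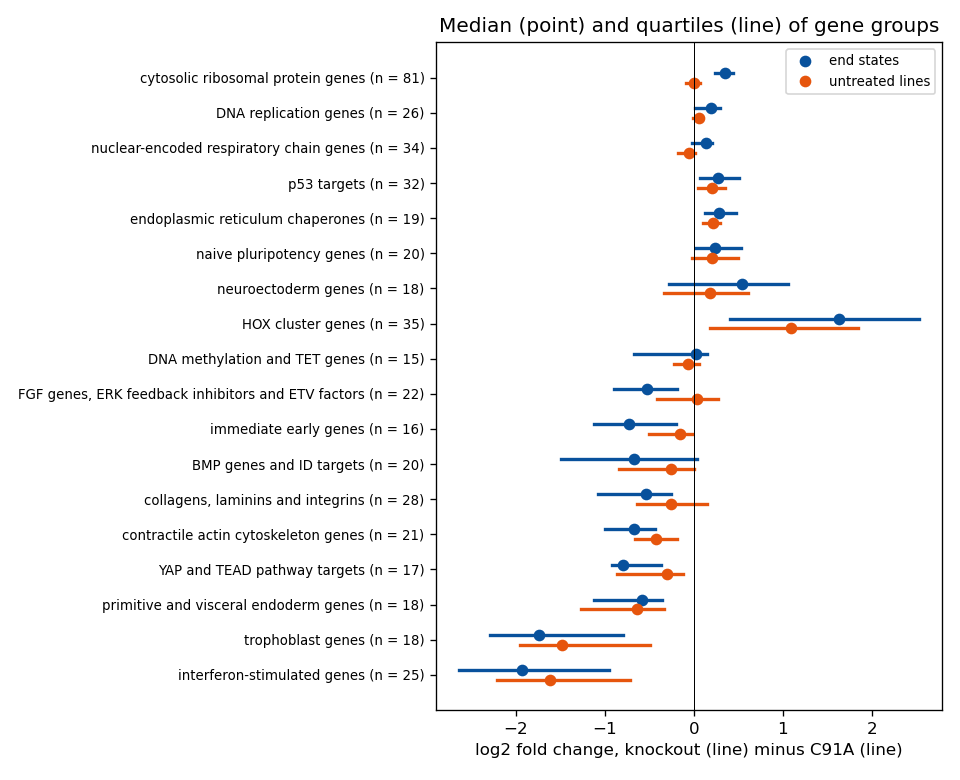
Median (point) and quartiles (line) of the log2 fold change over the tested members of 18 gene groups, between the end states in blue and between the untreated lines in orange. The medians of ribosomal protein genes (0.35 and 0.00) and of FGF and ERK feedback genes (-0.53 and 0.03) differ between the comparisons, while interferon-stimulated genes are low in both (-1.93 and -1.62).

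Of 20 naive pluripotency genes 10 were higher and 4 lower in the knockout, with a median of 0.24, against backgrounds of 24.6% and 26%. Between the untreated lines 12 were higher and 3 lower, against 17.4% and 17.5%. Esrrb, an orphan nuclear receptor of the naive network, was at 857, 820 and 844 CPM against 523, 541 and 541 CPM (0.65, SE 0.04). Dppa3 (Stella), a maternal factor that guards DNA methylation, stood the other way at 10.8, 8.46 and 7.76 CPM against 22.8, 21.9 and 22.9 CPM (-1.34, SE 0.12). Among general pluripotency genes 7 of 16 were higher and 7 lower. L1td1, an RNA-binding protein, was at 98.0, 95.7 and 98.0 CPM against 209, 219 and 220 CPM (-1.15, SE 0.05). The DNA methyltransferase genes of the early embryo were lower. Dnmt3l, the catalytically inactive partner, was at 90.1, 90.9 and 90.02 CPM against 275, 269 and 275 CPM (-1.60, SE 0.05), and the enzyme Dnmt3b at 127, 133 and 135 CPM against 319, 329 and 317 CPM (-1.29, SE 0.05). Both differed in the same direction untreated (-1.11 and -0.94), and both gaps widened (changes -0.49 and -0.35).

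Neuroectoderm and HOX genes were more often higher than lower in the knockout. Of 18 tested neuroectoderm genes 10 were higher and 3 lower (24.6% and 26% over all genes), with a median of 0.54. The neural adhesion molecule Ncam1 was at 51.8, 58.3 and 52.9 CPM against 21.7, 20.5 and 20.7 CPM (1.37, SE 0.08), and the neural factor Sox1 at 10.8, 10.97 and 9.63 CPM against 3.48, 2.93 and 4.00 CPM (1.56, SE 0.16). Both gaps were wider than untreated (changes 0.85 and 0.93). Of 35 tested HOX cluster genes, classical targets of Polycomb repression, 17 were higher, each at least 2-fold, and 0 lower (24.6% and 26% over all genes). Outside chromosome 11, 8 of 25 members were higher and 0 lower, nearer to that background, and the other higher members lay on chromosome 11. The median of the 35 was 1.63, or 1.41 with the 3 members at 0 counts in a group set at their bound. Untreated, 14 of the 35 were higher and 0 lower. Levels were low, with the list summing to 45.4 to 50.5 CPM in the knockout and 15.8 to 17.8 CPM in the C91A mutant. Hoxb8, on chromosome 11, was at 4.14, 8.46 and 5.96 CPM against 1.14, 0.887 and 0.931 CPM (2.61, SE 0.26), against the lower direction of that chromosome as a whole. The change passed the test for 1 of the 35 genes. In the NOTCH list 4 of 19 genes were higher and 8 lower, and the target Hes1 and the ligand Dll1 stood higher (1.15, SE 0.07, and 0.93, SE 0.07).

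The genes ranked highest at the end state, among those with a symbol, a mean log2 CPM reaching 2 and groups that did not overlap, were mostly high already in the untreated knockout line. Fkbp6, a chaperone of meiosis, was at 11.3, 11.2 and 12.0 CPM against 1.70, 1.64 and 1.97 CPM (2.69, SE 0.17), and the untreated lines were at 10.2 and 2.05 CPM. Derl3, of endoplasmic reticulum quality control, was at 72.8, 71.1 and 71.6 CPM against 18.5, 20.5 and 20.7 CPM (1.85, SE 0.08, untreated 1.69). The growth factor Pdgfc was at 58.6, 56.0 and 50.9 CPM against 15.7, 14.5 and 16.3 CPM (1.82, SE 0.08), the matrix protein Tgfbi at 23.9, 18.5 and 20.6 CPM against 4.75, 4.57 and 5.31 CPM (2.11, SE 0.12), and the WNT effector Lef1 at 11.8, 10.97 and 11.4 CPM against 3.41, 2.66 and 3.56 CPM (1.82, SE 0.14). For these 5 genes the change did not pass the test. It did for Runx1t1, a transcriptional corepressor at 10.5, 10.4 and 11.5 CPM against 1.63, 2.18 and 2.30 CPM (2.40, SE 0.19, change 1.78). The epidermal gene Flg also widened (2.67, SE 0.17, change 1.51). The remaining genes of the top 10 were Hormad1 (2.27), a chromosome axis protein of meiosis, Raet1e (2.02), a ligand of a natural killer cell receptor, and Fgfbp3 (1.97), a carrier of FGF ligands.

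The lowest genes showed the same mixture. Mid1, an X-linked ubiquitin ligase on microtubules whose gene crosses the pseudoautosomal boundary, was at 2.70, 1.06 and 1.62 CPM against 20.2, 20.2 and 20.5 CPM (-3.46, SE 0.18), and the gap was narrower than untreated (-4.66, change 1.21). The homeobox genes Rhox5 and Rhox6, neighbours on the X chromosome, were at 23.3, 26.2 and 27.2 CPM against 178, 200 and 198 CPM and at 10.4, 8.59 and 9.87 CPM against 70.5, 75.4 and 77.6 CPM (-2.90, SE 0.06, and -2.93, SE 0.10). Their untreated differences were -2.64 and -2.92, and wild type lay between the lines at 76.7 and 28.8 CPM. Plet1, a surface protein of placental progenitors, was 2.85 lower (SE 0.13). The stress chaperone Hspa1a was at 4.14, 3.57 and 3.07 CPM against 34.4, 39.4 and 34.2 CPM (-3.35, SE 0.13). It has a near-identical copy, Hspa1b, and only uniquely aligned reads were counted. Ptges, which makes prostaglandin E, was at 3.69, 3.57 and 3.67 CPM against 30.8, 30.7 and 35.5 CPM (-3.15, SE 0.12), and the glutamate receptor gene Grik3 at 4.05, 2.91 and 2.89 CPM against 24.8, 28.2 and 25.3 CPM (-3.00, SE 0.14). Both of the latter gaps had widened (changes -1.66 and -2.09). Tns4, a focal adhesion protein on chromosome 11 (-3.23, SE 0.15), and Synpo2l, an actin-binding protein of muscle (-3.20, SE 0.20), completed the lowest 10 together with Bmp8b.

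Genes that separated the end states while the untreated lines were close (untreated difference under 0.25 and a change that passed the test) numbered 1382 higher and 1149 lower, of which 26 and 136 differed at least 2-fold. Ehbp1l1, an adaptor of membrane tubules, was at 4.05, 3.44 and 3.49 CPM against 11.8, 12.4 and 11.9 CPM in the C91A mutant (-1.72, SE 0.14), with 17.1 and 16.6 CPM untreated. Fam83h, a keratin-organizing protein, was at 11.6, 11.4 and 13.1 CPM against 36.7, 38.4 and 39.5 CPM (-1.65, SE 0.09), with 31.9 and 32.1 CPM untreated. For Fam83h the C91A mutant stood near its untreated level and the knockout below all other groups of the 2 lines. Among the higher genes of this kind, H1f2, a linker histone, was at 54.5, 48.5 and 51.0 CPM against 20.6, 19.8 and 22.3 CPM (1.29, SE 0.08). Polyadenylated RNA was selected, so these values do not measure H1f2 transcripts without a poly(A) tail. Rab3il1, an exchange factor for RAB GTPases, was at 92.9, 79.5 and 82.4 CPM against 37.8, 36.0 and 39.2 CPM (1.17, SE 0.07). Of the 286 and 529 genes at least 2-fold higher and lower in the untreated knockout line, 141 and 92 were not called at the end state. By the stricter rule of a difference under 0.25 at the end state and a change that passed the test, 9 and 8 had converged. Metrn, a secreted neurotrophic factor, was at 71.4 and 33.2 CPM untreated and at 34.9, 27.2 and 33.6 CPM against 31.7, 33.9 and 32.6 CPM at the end state, where the ranges overlapped. Lpl, lipoprotein lipase, went from 6.27 and 13.8 CPM untreated to 26.5, 26.03 and 24.97 CPM against 25.5, 25.2 and 23.4 CPM.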

How the data were processed

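RNA of 18 libraries of mouse embryonic stem cells was sequenced as single 50-base reads after polyadenylated RNA selection, per the labels' protocols. GSNAP, with no version stated, and GRCm38 are named as aligner and genome, per the submitters' processing notes. The deposited counts are uniquely aligned reads per gene model, per the file headers. The sources used here do not give whether read strand was used. The deposited RPKM values, adjusted by the authors with their size factors, served only to recover those factors.

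Of 36528 listed genes 31049 were named from RefSeq (GRCm38.p6) and 78 from GENCODE M21. Genes passing filterByExpr (16875) were scaled by TMM and tested in edgeR 4.0.16 by robust quasi-likelihood, in R 4.3.3 with limma 3.58.1. Each group had 1 mean, and all 18 libraries shared the estimate of spread. Tests gave knockout minus C91A mutant, the same for the untreated lines, and the difference of these 2 differences, each with Benjamini-Hochberg adjustment at 0.05. The SE was taken from the fold change and its F statistic. The fit was tested on simulated counts. The 47 gene lists and the comparison were chosen with earlier results of these data known, and no list was tested as a set. Named genes were 4 genes of the design (Bap1, Rnf2, Bcl2, Mcl1), the 10 highest and 10 lowest among genes whose mean log2 CPM reached 2 without overlap of the groups, up to 3 called members per list, up to 5 per direction that were new, converged or turned round, and 5 per library that departed from its group. Other list members are given as examples chosen after their values were seen. Replicates were numbered in the order of submission. Alternatives were DESeq2 1.42.0, other scalings and filters, only the compared groups, thinned counts and leaving out each library. A non-robust spread and the counts outside chromosome 11 were added after seeing the data. ISRE and CArG matches were counted in RefSeq promoters. Some results are not reported here.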

Additional observations from a re-analysis of the deposited data

Results flagged for a closer look

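The line difference was not the same without and with the drug for 4395 genes, by the test of the change itself. In 95 genes that were higher and 208 that were lower at the end state, the untreated lines differed in the opposite direction, with both differences called. Among turned genes with a symbol and a mean log2 CPM of 2 or more, the 5 with the largest end-state difference in each direction had the following changes (end-state minus untreated difference, log2). Those now higher in the knockout were Gadd45g, a stress-induced growth inhibitor (1.46), the NOTCH ligand Dll4 (2.09), the neural factor Sox21 (1.10), the protease inhibitor Serpine2 (0.87) and the translation kinase Eef2k (0.79). Those now lower were the nodal inhibitor Lefty2 (-2.0), the crosslinking enzyme Tgm1 (-1.54), sulfiredoxin Srxn1 (-1.69), Crybg2 (-1.42) and the glycosyltransferase Mgat3 (-1.54). Gadd45g stood at 521, 468 and 489 CPM in the knockout and 271, 281 and 267 CPM in the C91A mutant, with 174 and 265 CPM in the untreated lines. Srxn1 was at 27.6, 32.2 and 31.3 CPM against 72.9, 79.0 and 78.3 CPM, with 83.5 and 65.4 CPM untreated. For Dll4 the ranges overlapped (8.10, 3.44 and 5.72 CPM against 3.76, 3.75 and 2.79 CPM), and its end-state call was lost without knockout replicate 1 (0.52, adjusted p = 0.069). The untreated differences of Sox21 (-0.36), Tgm1 (0.17) and Crybg2 (0.21) were small, and their calls were lost without some of the untreated libraries. The adjusted p then ran from 0.064 to 0.17 for Sox21 (without replicate 1 or 2 of the knockout line, or 2 or 3 of the C91A line). It ran from 0.053 to 0.11 for Tgm1 (without replicate 1 or 3 of the knockout line, or any of the C91A line) and from 0.076 to 0.11 for Crybg2 (without replicate 1 or 2 of the knockout line, or 2 or 3 of the C91A line).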

How the results depend on the processing

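No paired analysis was possible because the labels give the replicates no numbers. The 12 counts of genes called higher or lower, in all or at least 2-fold, in the 3 comparisons stayed within 1.5 times their value in each of 204 recomputations. Of 226 tests of named genes, 0 changed direction and 18 lost their call in at least 1 of the alternatives. Leaving out each library in turn gave 3663 to 3973 genes higher and 3862 to 4202 lower at the end state. For Bcl2 the end-state difference then ranged from -3.64 to -2.74. The small classes moved more: genes that converged after being higher or lower in the untreated knockout line numbered 5 and 4 on thinned counts against 9 and 8, and genes turned to lower at the end state 130 against 208. Under 4 scalings the list medians kept their sign. Knockout replicate 2 was the shallowest library, which limits what can be said of genes near 0 in the knockout.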

Other observations

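In the list of 34 tested imprinted genes 8 were higher and 13 lower in the knockout, against 24.6% and 26% of all genes. The neighbouring noncoding RNAs Meg3 and Rian on chromosome 12 were both lower, Meg3 at 2.70, 3.57 and 2.65 CPM against 11.8, 11.3 and 12.6 CPM (-2.05, SE 0.16) and Rian at 2.25, 3.70 and 3.55 CPM against 13.3, 14.5 and 12.0 CPM (-2.06, SE 0.17). Of 27 germline and meiosis genes 10 were higher and 7 lower, and untreated 16 were higher and 3 lower. The meiotic cohesin gene Stag3 was at 94.2, 85.4 and 95.5 CPM against 33.8, 29.9 and 33.5 CPM (1.51, SE 0.06), while Tdrd12, of the piRNA pathway, was lower (-1.42, SE 0.08). Cholesterol genes had 12 of 25 higher and 4 lower. Insig1, a sensor of sterols, was higher (1.02, SE 0.05). Among glycolysis and hypoxia genes 13 of 29 were lower and 7 higher, among them the glucose transporter Slc2a1 at 368, 350 and 371 CPM against 706, 759 and 757 CPM (-1.03, SE 0.05).

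Of 19 tested fibroblast markers 12 were lower and 2 higher in the knockout, and their summed level was 3814 to 4024 CPM against 3157 to 3228 CPM. Fibronectin (Fn1), at 3111, 2969.8 and 2920.2 CPM against 1990.5, 1933 and 1976 CPM, made up most of that sum. Vim (0.79, SE 0.05) was the other higher member, and Pdgfrb the most reduced (-2.32, SE 0.20).

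On the Y chromosome 6 genes were tested, 83.3% of them lower and 16.7% higher in the knockout. Between the untreated lines the same share was lower. Kdm5d was at 0.360, 0.396 and 0.120 CPM in the knockout and 2.62, 3.14 and 3.01 CPM in the C91A mutant, with 0.190 CPM in wild type. Wild type was not near 0 for Uty, at 5.78 CPM against means of 5.76 in the knockout and 10.9 in the C91A mutant. For Ddx3y it was at 7.65 CPM, against means of 17.1 and 26.3 CPM.

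Within the end-state groups few genes departed from their replicates. Bcl2 in C91A mutant replicate 1 lay 3.53 log2 units below the mean of the other 2 libraries, the largest such departure over the 6 libraries among genes whose mean log2 CPM reached 2.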
